A study of Rattus norvegicus with 5 samples.

Results

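The genes described here are the kinesin motors and their light chains, taken as all probes whose platform gene symbol starts with Kif and a digit, or with Klc. The rule found 42 probes for 30 genes among 33849 discovery probes, of which 16753 carry 1 gene symbol. From textbook function, 12 of the probes belong to 10 mitotic kinesins, 23 to 15 transport kinesins and light chains, and 7 to 5 genes placed in neither list, among them Kif12. Each symbol was matched through its Entrez gene number, and 0 of the 42 changed. The rule used no measured value, but the members and lists were chosen with earlier results of these data known.

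Kinesins are motors that walk along microtubules on the energy of ATP. One branch of the family builds and moves the spindle in dividing cells, another carries vesicles and organelles through cells at rest, often through light chains (Klc) that hold the cargo. Hepatocytes of adult liver seldom divide but are polarised and move much cargo, so both branches bear on liver and on tumours grown from it.

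RNA was read on 5 single-colour CodeLink arrays of the whole rat genome. Of these, 4 held hepatocellular carcinoma lines, cell cultures derived from tumours of male F344 rats given N-nitrosomorpholine and diethylnitrosamine, with 31 weeks as the age in the labels. C5F and C6 have low and N1 and L2 high metastatic ability in the design text. The fifth array held the liver of 1 untreated male SD rat of 50 weeks, so that strain, age, tumour and growth in culture all differ between lines and liver and cannot be told apart. Each line gave 1 array, and the spread given below is that between lines, not between cultures of a line. No array repeats another, and their number limits the precision.

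The scanner software called between 30.6% and 39.2% of probes above background on an array, fewest in liver and most in C5F. The lowest signal it called above background was 14.6 in liver and between 7.87 and 13.0 in the lines, so that a dim transcript had to be brighter in liver to count. Of 8 hepatocyte markers, 7 were above background in liver, with the other one unusable there, 5 in C5F and 1 in each of C6, N1 and L2. Albumin (Alb) was near background in all 4 lines. Liver tissue also holds other cells: 6 of 7 Kupffer cell and leukocyte markers were above background there against 2 in each line, and their summed signal was 4130 in liver and 52.3 to 83.6 in the lines. For endothelial markers 5 of 5 usable spots were above background in liver and 1 or 2 in the lines (summed signal 520 against 31.6 to 48.4), and for stellate cell markers 4 of 6 and 0 or 1 (538 against 13.6 to 202). Ptprc, Lrat and Acta2 were near background on every array with a usable spot. Not every marker differed: Cd163 was not called, and Col1a1 read 7.56 in liver beside 7.10 in C5F and 7.49 in N1. The stellate sums rest on 6 usable spots in liver and N1, 5 in C5F and C6 and 4 in L2. Reln, bright in liver, lacked a usable spot in C5F and L2, and Col1a1 in C6 and L2. The low stellate sums of these lines thus partly reflect missing spots. With that limit, the summed levels of these lists were lower in all 4 lines than in liver. Their part in the comparisons of lines with liver was not tested. In such a tissue fewer cells of a type and less RNA per cell cannot be told apart.

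The mitotic kinesins were brighter in the 4 carcinoma lines than in liver, and the transport kinesins were not called in either direction. All 9 mitotic probes with a test passed it, with differences from 1.64 to 4.07 on the log2 scale, where 1 is a doubling. None of 9 transport probes passed. The lists behind these counts were drawn up with earlier results of these data known. Kif2a, used at spindle poles too, is in neither list. Its brightest probe was not called (limma adjusted p = 0.0858), while a dimmer one was. Over all probes, 9.01% of 11949 tested were called higher in the lines and 9.38% lower (limma, adjusted p under 0.05). The filter on dim probes kept a probe that liver, or 2 or more of the lines, showed above background, and 5 of the 9 mitotic probes passed only through the lines, where they had to be bright. The measured support therefore rests on the 4 mitotic probes that were above background in liver too, Kif4a, Kif20a, Kif22 and Kif23, and all 4 were called higher, with a median difference of 3.07. The calls of Kif20a and Kif22 held in the 7 settings tried with all lines kept, and those of Kif4a and Kif23 did not. Kif4a was lost with the deposited normalized values (limma adjusted p = 0.0527) and without the filter (0.0636), and Kif23 with these (0.0644 and 0.0992) and with a higher floor (0.0599). Of all tested probes above background in liver, 3.37% of 8438 were called higher, and of those near background in liver 22.6% of 3511.

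**Figure D1:**
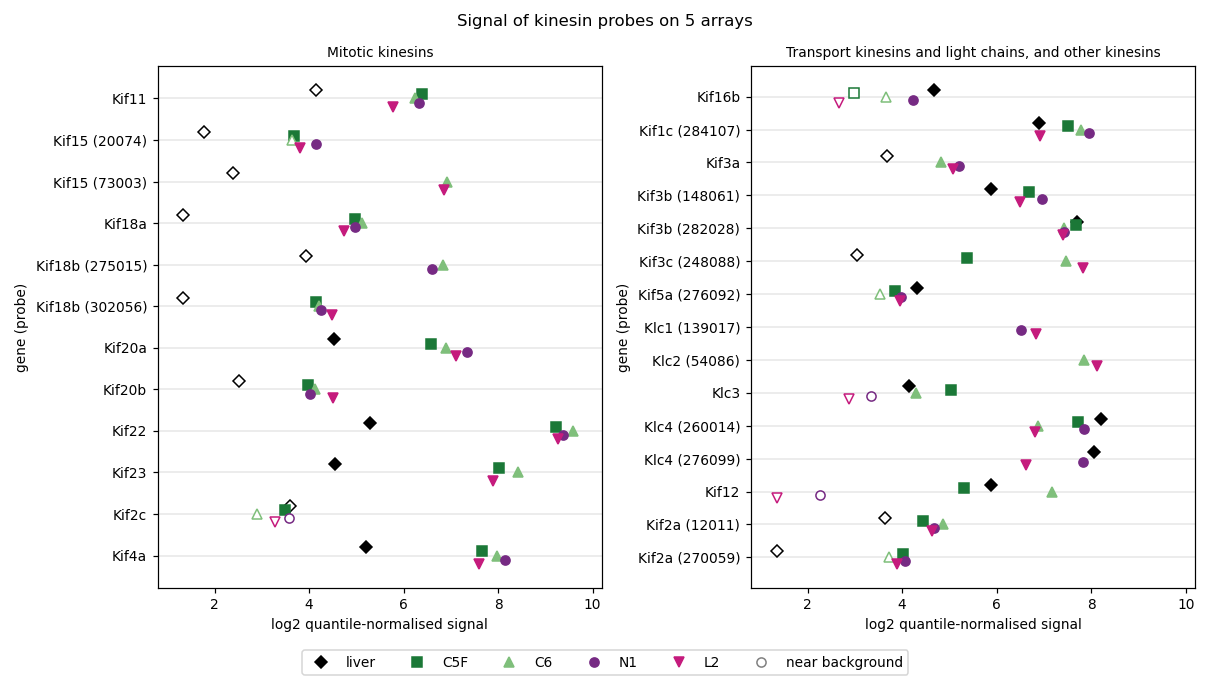
Log2 quantile-normalised signal (x axis) of each kinesin probe above background on at least 1 array (y axis), with 1 point per array and open points for spots near background. On the left, liver lies to the left of every usable line (2 to 4 a probe) for the mitotic kinesins except Kif2c. On the right, liver lies among the lines for Klc3 and Kif12. For the other probes with a liver point it lies to the left or the right of all usable lines. Klc1 and Klc2 have no liver point.

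Kif22, a chromokinesin that pushes chromosome arms away from the spindle poles, had a log2 signal of 5.29 in liver, 9.22 (C5F), 9.59 (C6), 9.38 (N1) and 9.26 (L2). All 4 lines lay far above liver and within a narrow band, and the difference was 4.07 ± 0.25 (SE, n = 4 lines against 1 liver; limma adjusted p = 0.0101). That is 16.8-fold. Kif23, the motor of centralspindlin, which organises the midzone of the dividing cell, read 4.55 in liver, 8.01 in C5F, 8.42 in C6 and 7.89 in L2, with an irregular spot in N1. Its 3 usable lines lay above liver by 3.51 ± 0.32 (n = 3 lines against 1 liver; limma adjusted p = 0.0334).

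Kif4a, a chromokinesin that also shortens microtubules of the central spindle, read 5.21 in liver, 7.66 (C5F), 7.98 (C6), 8.15 (N1) and 7.60 (L2). Its difference was 2.64 ± 0.33 (limma adjusted p = 0.0276). Kif20a, which carries the chromosomal passenger complex to the midzone, read 4.52 in liver, 6.58 (C5F), 6.89 (C6), 7.34 (N1) and 7.12 (L2). Its difference was 2.47 ± 0.25 (limma adjusted p = 0.0196). In these genes, too, the lines did not overlap with liver.

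The other mitotic kinesins were near background in liver, so that only a lower bound of the change can be given, taken against the lowest liver signal called above background or the spot's own signal if higher. Kif11 (Eg5), which slides the spindle poles apart, read 4.15 in liver, 6.38 (C5F), 6.24 (C6), 6.33 (N1) and 5.77 (L2), at least 4.09-fold higher in the lines (limma adjusted p = 0.0358). Kif18a, which damps the swings of chromosomes at the metaphase plate, was at the floor of 1.34 in liver and read 4.97, 5.13, 4.98 and 4.75 in C5F, C6, N1 and L2, at least 2.12-fold higher (limma adjusted p = 0.0101). For Kif20b, a motor of late cytokinesis, the bound was 1.22-fold, from 2.51 in liver and 3.98 to 4.50 in the lines (limma adjusted p = 0.0451). That call was lost in 6 of the 7 other settings with all lines kept (limma adjusted p from 0.0524 to 0.514). These probes were above background in all 4 lines, and no line reached down to liver.

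Kif18b and Kif15 had 2 probes each, and both probes pointed the same way. For Kif18b, which trims astral microtubules, the dimmer probe was at the floor in liver and between 4.15 and 4.48 in the lines, at least 1.33-fold higher (limma adjusted p = 0.0120). Its brighter probe read 3.93 in liver, 6.83 in C6 and 6.60 in N1, at least 6.89-fold higher, without usable spots in C5F and L2 and without a test. For Kif15, which can stand in for Kif11, the dimmer probe read 1.78 in liver, 3.68 (C5F), 3.63 (C6), 4.15 (N1) and 3.80 (L2). It passed the test (limma adjusted p = 0.0253), but the mean of the lines was no higher than the lowest liver signal called above background, so it gives no bound. N1 alone of the lines passed that signal. The brighter Kif15 probe read 2.38 in liver, 6.91 in C6 and 6.85 in L2, at least 8.06-fold higher, and was irregular in C5F and N1, so that it had no test. With all lines kept, the call of Kif11 was lost without the filter (limma adjusted p = 0.0788), that of Kif18b with the higher floor (0.140), and that of Kif15 with the higher floor (0.746) and with the offset of 50 (0.164).

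Kif2c, a depolymerase that corrects faulty attachments at centromeres, was the exception among the mitotic members. Its probe read 3.60 in liver, 3.49 (C5F), 2.89 (C6), 3.58 (N1) and 3.28 (L2), above background in C5F alone, and it did not pass the filter. No level of Kif2c can be ordered from it. A probe named Kif14 was not analysed here.

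The calls need all 4 lines. With C5F, C6, N1 or L2 left out in turn, 0 of 18, 18, 19 and 17 tested kinesin probes passed limma's adjusted p, against 10 with all lines, although 11, 11, 10 and 9 had an unadjusted p under 0.05. The counts over all probes also went to 0, from 2198. The median difference of the mitotic kinesins, 2.64 over 9 genes, lay between 2.48 and 2.65 with a line left out. For 5 of these genes liver was near background, and leaving out a line does not test a size that rests on such a spot. Over all tested probes the median was 0.15. With each line set against liver alone, the mitotic median was 2.46 (C5F), 2.78 (C6), 2.87 (N1) and 2.60 (L2). The test lends the single liver array the spread seen between lines of 1 class. The mitotic median was 0.86 when an offset of 50 was added to the signals in place of the floor, a setting that narrows differences of dim probes.

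**Figure D2:**
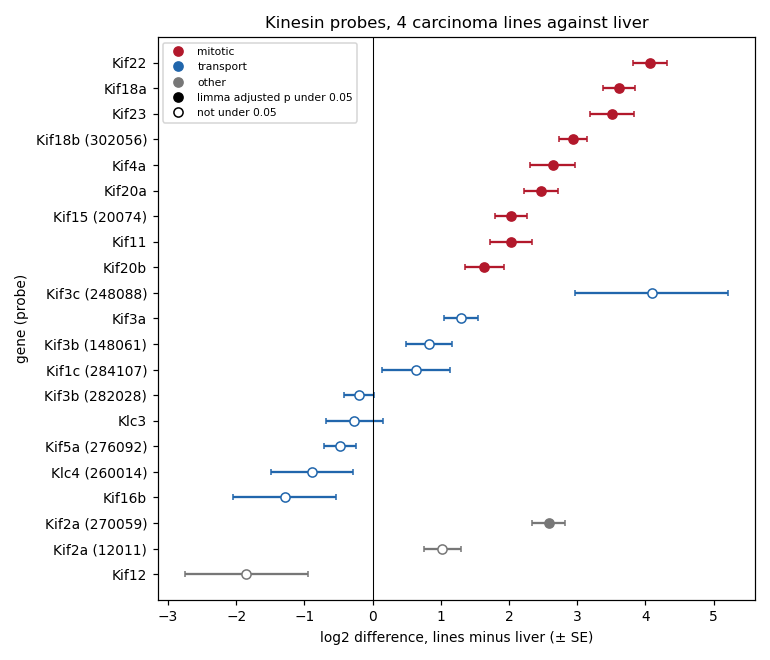
Log2 difference between the carcinoma lines and liver (x axis) of the 21 tested kinesin probes (y axis), with the standard error from limma, red for mitotic, blue for transport and grey for other kinesins, filled where the adjusted p was under 0.05. The 9 mitotic probes lie between 1.64 and 4.07, while the transport probes scatter on both sides of 0.

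Promoter windows are shown because the mitotic members differed from liver together. Genes of late cell cycle are known to carry CCAAT boxes, bound by the factor NF-Y, and the letters TTTGAA, or with the same role TTCGAA, of the CHR element, bound by MuvB complexes. Windows of 300 bases, 250 before and 50 after the annotated start, came from RefSeq (build GRCr8) and were found for 28 of the 30 genes. The 3 sets of letters were searched on both strands, and matches may share bases at their ends. TTTGAA was in the windows of 5 of 10 mitotic genes, 0 of 13 transport genes and 19.4% of 27457 genes with a window. TTCGAA was in 0 of 10, 0 of 13 and 1.89%. CCAAT was in 6 of 10 mitotic genes, 4 of 13 transport genes and 39.6% of all. CCAAT together with either of the other sets of letters was in 4 of 10 mitotic genes (Kif4a, Kif20b, Kif22 and Kif23), in 0 of 13 transport genes and in 8.57% of all. Of the 5 genes in neither list, 1 held TTTGAA, 2 held CCAAT and 1 held both. That last gene is Kif26b, which was near background on every array, so the pair is not confined to mitotic members. Of the 4 mitotic genes with the pair, Kif4a, Kif22 and Kif23 were above background in liver. The 4 windows follow, each 5′ to 3′ on the strand of its gene, with the matched letters of either strand in capitals (on the other strand CCAAT reads as ATTGG, while TTTGAA there becomes TTCAAA).
Kif4a, chrX:69761633-69761932, plus strand: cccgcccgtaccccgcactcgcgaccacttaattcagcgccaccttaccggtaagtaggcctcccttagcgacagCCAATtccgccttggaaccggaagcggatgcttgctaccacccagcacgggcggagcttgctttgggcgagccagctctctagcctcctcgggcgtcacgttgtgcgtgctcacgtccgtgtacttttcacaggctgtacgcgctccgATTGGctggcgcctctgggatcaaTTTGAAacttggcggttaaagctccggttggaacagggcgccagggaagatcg
Kif22, chr1:191080829-191081128, minus strand: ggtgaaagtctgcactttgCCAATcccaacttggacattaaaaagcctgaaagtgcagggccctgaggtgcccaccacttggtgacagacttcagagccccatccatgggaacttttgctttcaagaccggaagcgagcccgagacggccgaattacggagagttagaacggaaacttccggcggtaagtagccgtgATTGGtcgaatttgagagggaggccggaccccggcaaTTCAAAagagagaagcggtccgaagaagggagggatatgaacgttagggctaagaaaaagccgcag
Kif23, chr8:71320535-71320834, minus strand: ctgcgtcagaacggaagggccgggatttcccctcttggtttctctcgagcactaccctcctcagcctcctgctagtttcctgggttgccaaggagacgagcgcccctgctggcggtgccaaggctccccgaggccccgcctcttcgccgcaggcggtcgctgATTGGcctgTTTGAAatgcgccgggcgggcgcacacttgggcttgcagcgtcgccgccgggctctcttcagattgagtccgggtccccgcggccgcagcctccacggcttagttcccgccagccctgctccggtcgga
Kif20b, chr1:241840766-241841065, plus strand: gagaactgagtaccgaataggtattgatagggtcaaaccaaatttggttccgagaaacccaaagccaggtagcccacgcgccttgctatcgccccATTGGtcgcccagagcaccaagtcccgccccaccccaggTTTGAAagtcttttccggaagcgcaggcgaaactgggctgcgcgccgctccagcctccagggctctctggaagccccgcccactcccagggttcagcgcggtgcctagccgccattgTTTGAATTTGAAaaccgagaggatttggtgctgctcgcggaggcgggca
In the Kif4a window the nearest CCAAT, read on the other strand, begins at −27 from the annotated start and TTTGAA at −3. In Kif23 they begin at −88 and −79, and in Kif22 the nearest pair at −53 and −16. In Kif20b CCAAT begins at −155 and TTTGAA at −116, with further TTTGAA matches just after the start. Kif18a, Kif18b and Kif2c hold none of the letters in their windows, though the first 2 were called higher. A match of letters is a description and says nothing on whether a factor binds there.

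Partners of these motors in the spindle and in cytokinesis were given by a list of 32 genes, of which 26 were on the array and 17 tested. Of these 12 were higher in the lines, 0 lower and 5 not called, with a median difference of 2.68. Over all probes tested, 9.01% were called higher. Among the 10 listed genes above background in liver, 8 were higher (median 2.64), beside 3.37% of all such probes. The other 7 listed genes, of which 4 were higher, passed the filter only through the lines, where they had to be bright. They are part of the median of 2.68. Of all tested probes near background in liver, 22.6% were higher. Incenp, a subunit of the passenger complex that Kif20a carries, read 3.05 in liver and 6.94 to 7.09 in the 3 lines with a usable spot, at least 8.78-fold higher (limma adjusted p = 0.0218). Bub1, a kinase of the spindle checkpoint, was at least 8.30-fold higher (limma adjusted p = 0.0102). Cdc20, which activates the anaphase ubiquitin ligase, differed by 3.78 ± 0.23 (limma adjusted p = 0.0100), and Ccnb1, cyclin B1, by 3.42 ± 0.24 (limma adjusted p = 0.0252). The C-terminal kinesin Kifc1, which focuses spindle poles, is in the same list and outside the naming rule. It differed by 2.49 ± 0.24 (limma adjusted p = 0.0351), while Kifc2 differed by 0.32 ± 0.49. Of 7 tested tubulins, the building blocks of the track, 4 were higher and 3 not called (median 2.77), beside 9.01% of all probes called higher. Of the 5 above background in liver 3 were higher, beside 3.37% of all such probes. Tubb6 differed by 4.62 ± 0.56 (limma adjusted p = 0.0260) and Tubb5 by 2.90 ± 0.33 (limma adjusted p = 0.0241). The calls of Kifc1 and Tubb5 were lost with the deposited values (limma adjusted p = 0.0609 and 0.0619), those of Tubb5 and Tubb6 without the filter (0.0569 and 0.0733), and that of Tubb5 with scaling by the 75th percentile (0.0547). Tubg1 of the microtubule organising centre was at least 2.03-fold higher (limma adjusted p = 0.116), and Tuba1c differed by 2.77 ± 0.39 (limma adjusted p = 0.0549).

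Transport kinesins and light chains gave 9 tested probes for 8 genes, with a median difference of −0.24 (one probe per gene) and adjusted p-values from 0.0799 to 0.664; 2 of the 9 had an unadjusted limma p under 0.05, beside 38.6% of all probes tested. Of the 6 transport probes usable on all 5 arrays, 4 had every line below liver and 1 had every line above it, where 34.5% and 37.3% of 8442 probes did so. Of the 8 mitotic probes usable on all arrays, 8 had every line above liver. For 5 of these 8 that was largely set beforehand. They were near background in liver and passed the filter only through the lines, where they had to be bright. Kif4a, Kif20a and Kif22 alone of the 8 were above background in liver too. Of the 23 transport probes 11 were near background on every array with a usable spot, and this holds for every probe of Kif1b, Kif5b, Kif5c, Kif13a and Kif13b. Kif5b is the widely expressed heavy chain of conventional kinesin, so these probes give no level of the motor that most cells use. Probes named Kif1a, Kif17, Kif21a and Kif21b were not analysed here.

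Among cargo motors, Kif1c, which carries vesicles and integrins, read 6.90 in liver, 7.50 (C5F), 7.78 (C6), 7.95 (N1) and 6.91 (L2). L2 stood level with liver and the other lines above it, and the difference was 0.64 ± 0.50 (limma adjusted p = 0.409). A second Kif1c probe was near background on all arrays. Kif16b, which moves early endosomes, read 4.67 in liver, 2.97 (C5F), 3.66 (C6), 4.22 (N1) and 2.66 (L2), above background in liver and N1 alone. Its fitted difference was −1.29 ± 0.75 (limma adjusted p = 0.289). Kif5a, a heavy chain best known from neurons, read 4.31 in liver, 3.85 (C5F), 3.53 (C6), 3.98 (N1) and 3.96 (L2), every line a little below liver (−0.48 ± 0.23; limma adjusted p = 0.233). With the higher floor alone of the settings, Kif5a was called lower (limma adjusted p = 0.0225).

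None of the kinesin-2 motors Kif3a, Kif3b and Kif3c was called. Kif3a and Kif3b form the heterodimer that supplies cilia. The brighter Kif3b probe read 7.69 in liver, 7.68 (C5F), 7.42 (C6), 7.42 (N1) and 7.41 (L2), a difference of −0.20 ± 0.22 (limma adjusted p = 0.546). Its dimmer probe read 5.88 in liver and 6.69, 6.96 and 6.49 in C5F, N1 and L2, a difference of 0.83 ± 0.34 (limma adjusted p = 0.222), so that the 2 probes disagree in sign. Kif3a read 3.68 in liver, near background, and 4.81, 5.21 and 5.07 in C6, N1 and L2, at least 2.24-fold higher (limma adjusted p = 0.0799). With irregular spots kept, and in no other setting, Kif3a was called higher (limma adjusted p = 0.0406). Kif3c, a partner of Kif3a known from neurons, read 3.04 in liver, near background, 5.38 in C5F, 7.46 in C6 and 7.83 in L2. It was at least 8.09-fold higher in the lines, but not called, and the lines spread widely (SD 1.32, n = 3 lines; limma adjusted p = 0.129). The second Kif3c probe was near background on all 5 arrays.

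Of the light chains, Klc4 read 8.20 in liver, 7.71 (C5F), 6.87 (C6), 7.85 (N1) and 6.80 (L2), with every line below liver (−0.89 ± 0.60; limma adjusted p = 0.351). Its second probe gave 8.05 in liver, 7.82 in N1 and 6.61 in L2. Both Klc4 probes placed L2 lowest. Klc1, with usable spots of its brighter probe only in N1 (6.51) and L2 (6.83), and Klc2, only in C6 (7.84) and L2 (8.13), could not be set against liver, and their other probes were near background throughout.

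Adaptors link these motors to cargo. Of 17 listed genes 15 were on the array and 9 tested, and 0 were called by limma (median 0.18). Over all probes tested 18.4% were called in either direction, so 9 genes give no result about adaptors as a set. Trak1, a mitochondrial adaptor, read 6.65 in liver and 4.33, 4.77, 5.44 and 6.13 in C5F, C6, N1 and L2 (−1.48 ± 0.40; limma adjusted p = 0.0874), with every line below liver. Map7, which recruits kinesin-1 to microtubules, differed by −1.13 ± 1.02, Mapk8ip1, a scaffold bound by light chains, by 0.99 ± 0.70 and Kidins220 by 0.97 ± 0.41, all 3 not called. Of 12 tested genes of dynein and dynactin, the motor of the opposite direction, 1 was higher (8.33%, near the 9.01% of all probes tested). It was the light chain Dynlt1, by 2.06 ± 0.26 (limma adjusted p = 0.0465). That call was lost with scaling by the 75th percentile (0.0541), with the deposited values (0.0882) and without the filter (0.0808, all limma adjusted p). Actr10 (2.01 ± 0.41), Dctn4 (1.39 ± 0.32) and Dctn3 (1.04 ± 0.24), subunits of dynactin, did not pass (limma adjusted p from 0.0701 to 0.102).

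Of the genes in neither list, Kif2a is a microtubule depolymerase used at spindle poles and in neurons. Its brightest probe read 3.63 in liver, near background, 4.43 (C5F), 4.87 (C6), 4.68 (N1) and 4.63 (L2), at least 1.72-fold higher without passing the test (limma adjusted p = 0.0858). Another probe, at the floor in liver and 3.72 to 4.05 in the lines, passed with a bound of only 1.04-fold (limma adjusted p = 0.0169), which it did not with the higher floor (0.650) or the offset of 50 (0.0690). The third was at the floor on all 5 arrays. Kif6, Kif26b and Kif27 were near background on every array.

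Kif12 belongs to neither list. It is a kinesin of epithelial cells in kidney and liver, and its loss in people is known to cause cholestasis in childhood. Its probe read 5.87 in liver, 5.31 (C5F), 7.17 (C6), 2.25 (N1) and 1.34 (L2, at the floor). The spots of N1 and L2 were near background, and those of liver, C5F and C6 above it. Klc3 of the transport list had the same calls on the 5 arrays. For Kif12, liver lay between the low-metastatic lines C5F and C6, so that their order is not beyond the spread of that class. N1 and L2, both near background, have no order. Kif12 was at least 6.27-fold brighter in the low-metastatic than in the high-metastatic lines, with a fitted difference of −4.44 ± 0.81 (high minus low, SE, n = 2 lines per class). It was singled out with these values known, so they are a description and carry no test. With any single line removed, the difference lay between −5.38 and −3.51. Against liver the 4 lines differed by −1.85 ± 0.90 (limma adjusted p = 0.230), an average of lines on both sides of it.

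Kif12 is also a marker of bile duct cells, so the other markers of these cells were read beside it. Of 4 others on the array, Sox9 and Spp1 were near background on every array. Krt19, a keratin of bile ducts, read 11.11 in C5F, 10.43 in C6 and 9.14 in L2, without a usable spot in liver and N1. Epcam, an adhesion protein, was above background in liver (5.61) and C5F (6.21), near background in L2 (3.29) and irregular in C6 and N1. The summed signal of the 4 was 56.9 in liver, 2290 (C5F), 1380 (C6), 11.3 (N1) and 582 (L2), from 2 to 4 usable spots. Krt19, by far the brightest of the 4, is missing from the sums of liver and N1, and Epcam from those of C6 and N1. That of N1 thus holds only Sox9 and Spp1, both near background. The sums cannot be compared between arrays. In L2, then, Krt19 was bright while Kif12 was at the floor. Their part in the Kif12 values was not tested. The Kif12 window, printed to set beside those of the mitotic members, holds none of the 3 sets of letters, and no letters are in capitals.
Kif12, chr5:81618320-81618619, minus strand: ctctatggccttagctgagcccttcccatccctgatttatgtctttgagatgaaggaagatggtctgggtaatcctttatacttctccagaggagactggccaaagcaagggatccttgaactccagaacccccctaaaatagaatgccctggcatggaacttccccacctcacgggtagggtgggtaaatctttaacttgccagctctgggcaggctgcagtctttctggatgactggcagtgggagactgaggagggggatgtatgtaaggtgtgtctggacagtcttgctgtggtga

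The 5 genes whose log2 profile, centred on its own mean, lay nearest to that of Kif12 over the 5 arrays were sought among 4438 named genes with usable spots throughout. They were Cyp26a1, an enzyme that breaks down retinoic acid (Euclidean distance 1.76), Dpf3, a chromatin remodelling subunit (1.84), Kdf1 (2.04), the carbonic anhydrase Car14 (2.04) and Stra6l (2.09). All 5 were above background in liver, C5F and C6 and near background in N1 and L2. Cyp26a1 read 4.53 in liver, 4.30 (C5F), 5.64 (C6), 2.40 (N1) and 1.73 (L2). The nearest genes to the mean profile of 8 mitotic kinesins were also sought. They were Casp8, a caspase of death receptors (0.175), Nt5c3b (0.214), Rrm1, the large subunit of ribonucleotide reductase (0.254), Pygb, a glycogen phosphorylase (0.260), and Stard6 (0.275). Rrm1 alone of these 5 was above background in liver, at 4.62 against 7.04 to 7.11 in the lines.

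**Figure D3:**
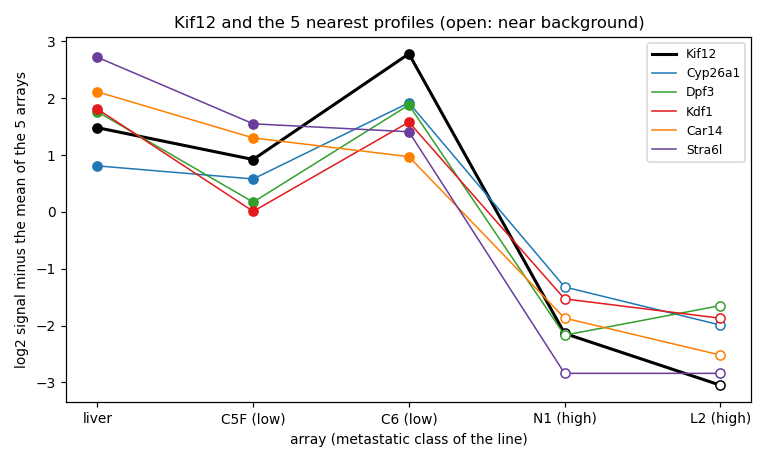
Log2 signal minus the mean of the 5 arrays (y axis) for Kif12 and its 5 nearest genes on each array (x axis), with open points for spots near background. Kif12 is highest in C6, and all 6 genes are near background in N1 and L2.

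Between the metastatic classes no kinesin probe was called. Of 21 kinesin probes tested 0 passed limma's adjusted p (from 0.670), as did 0% of 13741 probes tested, and 2 of 21 had an unadjusted limma p under 0.05 (9.52%, beside 7.31% of all probes). These 2 are Klc3 and Kif12, and Kif12 was singled out with these values known, so that its part in this count carries no test. The classes did not overlap for 6 of the 17 kinesin probes usable in all 4 lines (35.3%, beside 36.7% of 9352 probes), so that their share is that of all probes. For the 9 mitotic probes the median difference of high against low was 0.05 and the largest 0.50 ± 0.23, for Kif20a, with both high-metastatic lines above both low-metastatic ones. Kif15 (0.32 ± 0.22), from a dim probe, and Kif18b (0.18 ± 0.19), within its error, were also higher in both. Kif11 (−0.26 ± 0.28), Kif23 (−0.32 ± 0.34) and Kif18a (−0.19 ± 0.20) pointed the other way, within their errors too. The classes did not overlap for 3 of the 8 mitotic probes usable in all 4 lines (37.5%), near the 36.7% of all probes. The median of the mitotic genes ranged from −0.14 without N1 to 0.21 without C6. With 2 lines per class these values do not show that the classes are alike.

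Klc3, a light chain described in sperm and on mitochondria, was above background in liver (4.15), C5F (5.04) and C6 (4.30) and near background in N1 (3.33) and L2 (2.87). Both low-metastatic lines lay above liver, C6 by only 0.14, and both high-metastatic lines below it. The low-metastatic lines were at least 2.10-fold brighter (fitted difference −1.57 ± 0.37, high minus low; limma adjusted p = 0.670). Kif3c was the widest of the others, at 1.41 ± 1.17, from C5F and C6 against L2 alone. The transport genes had a median of 0.08, and from −0.49 without N1 to 0.30 without L2.

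**Figure D4:**
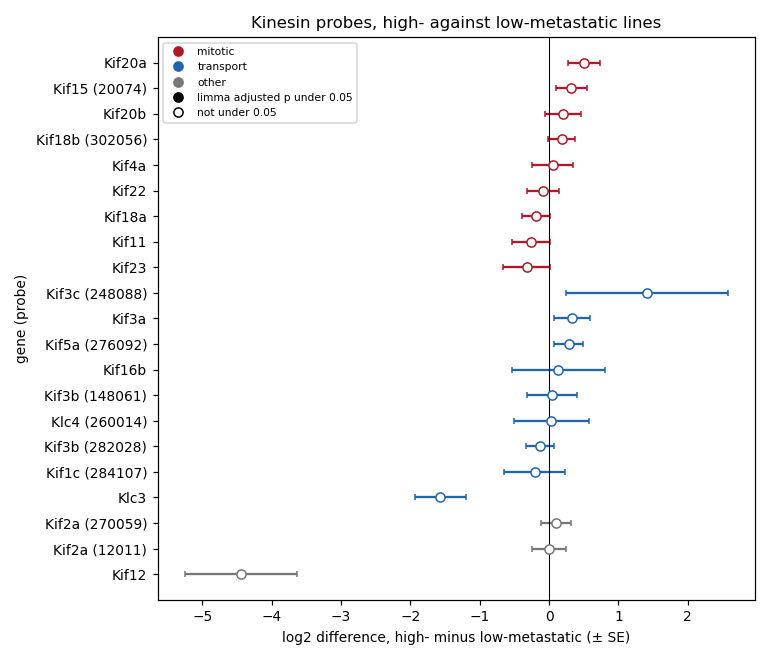
Log2 difference between high- and low-metastatic lines (x axis, with the standard error from limma) of the 21 tested kinesin probes (y axis), coloured by class and all open because none had an adjusted p under 0.05. Kif12 lies at −4.44 and Klc3 at −1.57, and the mitotic probes lie between −0.32 and 0.50.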

How the data were processed

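RNA of 4 carcinoma lines and 1 liver was hybridised to 5 CodeLink arrays. The scans were read by the authors with CodeLink Expression Analysis 4.1.0.29054, per the file headers. The deposited files hold a raw intensity per spot, which can be below 0, and a normalized intensity, the raw value divided by the array's median; the deposited value table equals the latter. No aligned reads are involved, and no depth applies.

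Raw intensities of discovery probes were used. Masked, irregular and contaminated spots were left out. Signals were then quantile normalised, raised to a floor of 2.53 (the median near-background spot) and put on the log2 scale, with limma 3.58.1 in R 4.3.3. A probe was kept (16377 were) if liver, or 2 or more lines, showed it above background. One limma fit with the groups liver, low- and high-metastatic gave the class difference, and the classes' average less liver, with empirical Bayes moderation (prior degrees of freedom 1.46, residual at most 2), two-sided tests and Benjamini-Hochberg adjustment over all probes tested, at a threshold of 0.05. Probes without a residual degree of freedom were not tested. Where probes of a gene differ, the tested probe of highest mean signal stands for it in medians. An "at least" fold sets the bright group's mean against, per array, the higher of the dim spot and the lowest signal above background.

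The members and lists were chosen with earlier results of these data known. Every member is accounted for. Of each other list up to 4 tested genes with the largest difference from liver were named, and the 5 nearest profiles. Alternatives covered scaling, offset, filter, irregular spots, the deposited values, probe averaging and each line left out; a higher floor was added after the data were seen. The procedure was tested on simulated data.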

Additional observations from a re-analysis of the deposited data

Results flagged for a closer look

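Klc3 was set apart because both low-metastatic lines lay above liver, C6 by only 0.14, and both high-metastatic lines below it. Over all probes the classes did not overlap for 36.7% of 9352. How many of those had liver between the classes was not counted. Its high- minus low-metastatic difference was −1.57 on the log2 scale and did not pass limma's adjusted p (0.670). Both spots below liver were near background. Its difference of all lines from liver, −0.27, turned to 0.11 with the higher floor.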

How the results depend on the processing

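Other scalings (by the 75th percentile, or by the median of above-background probes), the offset, filter, irregular spots, deposited values, probe averaging and a higher floor (14.6, the highest of the lowest signals above background, chosen after seeing the data) were tried. The 10 calls among kinesin probes, the 9 among mitotic probes and the 2198 over all probes each went to 0 with any 1 of C5F, C6, N1 or L2 left out; fewer arrays leave fewer residual degrees of freedom. The higher floor left 6 kinesin and 5 mitotic probes called and 1 transport probe (Kif5a, lower), and put the mitotic median at 2.03. Without the filter on dim probes 5 mitotic and 1 transport probe were called. That transport probe is one of those the filter removes, which were near background on every array, so its call gives no level. With irregular spots kept 1 transport probe was called (Kif3a, higher), and the medians were 2.93 for mitotic and 0.19 for transport genes. With the offset of 50 the mitotic median was 0.86. The transport median lay near 0 and was 0.02 with probes averaged. Without each line, the class medians ranged from −0.14 to 0.21 (mitotic) and from −0.49 to 0.30 (transport). Klc3 against liver reversed to 0.11 with the higher floor. Kif12 kept its direction in all 12 alternatives, with −5.38 to −1.39 between the classes and −2.32 to −0.41 against liver. It was singled out with these values known, and the alternatives rework the same arrays, so they are no test of it. Averaging probes changes nothing for Kif12, which has 1 probe. The other settings called 7 to 12 kinesin probes. No probe was called between the classes under any setting (500 to 2456 at an unadjusted limma p under 0.05). No paired analysis was possible because no replicate number in the labels links samples of different groups.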
